A study of Mus musculus with 14 samples.

Results

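The transcription factors that set dendritic cell (DC) identity were followed as a group of 10 genes, Zeb2, Irf4, Irf8, Klf4, Spi1, Batf3, Zbtb46, Id2, Tcf4 and Spib, among 23420 gene symbols with expected counts. They were taken by name, with no threshold on their values. The table holds 9 of them under the current symbol and Spi1 under its older symbol Sfpi1. All 10 passed the filter on low counts, which left 14217 genes for testing.

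DCs arise from a common bone marrow precursor and divide into conventional type 1 DCs, conventional type 2 DCs and plasmacytoid DCs. Each branch is held by a small set of DNA-binding proteins, several of which oppose one another: Irf8 with Batf3 and Id2 marks the type 1 branch, Irf4 with Klf4 and Zeb2 the type 2 branch, and Tcf4 with Spib and Zeb2 the plasmacytoid branch. Spi1 acts upstream in all of them, and Zbtb46 marks conventional DCs and their precursors.

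The study used LIPSTIC, a contact-labelling method: sortase A, a bacterial enzyme carried by T cells, couples a biotinylated peptide to pentaglycine (G5) tags on the cells they touch. Polyadenylated RNA was measured by Smart-seq2, a full-length protocol that does not mark strand, in 14 libraries of 150 sorted popliteal lymph node DCs from C57BL/6 mice. The sort took endogenous cells with high MHC-II that were positive for CD11c and CD11b and negative for XCR1, a surface marker of type 1 DCs. The labels write CD11c as positive in the protocol and as intermediate in the name of the population.

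Biotin-positive DCs (6 libraries) and biotin-negative DCs (6 libraries) were the labelled and unlabelled fractions from Cd40G5/G5 recipients, whose genotype is also written G5-Cd40+/+. These mice had received Cd40G5/G5 DCs pulsed with OVA323-339 peptide, 500000 per footpad, and 18 hours later 300000 OT-II CD4+ T cells of genotype CD40lgSrtA/Y CD4-Cre, which carry sortase on CD40 ligand through a CD4-driven Cre. Biotin-LPETG, the sortase substrate, was injected at 300 nmol per footpad 46 hours after the T cells, and nodes were taken at 48 hours. Cd40-null DCs (2 libraries, the controls) came from Cd40-/- mice treated the same way but given WT DCs and WT OT-II T cells, so genotype and both transferred populations differ together from the other groups. In each group the transferred DCs were pulsed with antigen, and the sequenced cells were those of the host. Whether libraries came from separate mice is not stated, so each p-value measures only the spread among these samples, which may be technical.

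Total counts ranged over 14518099 to 33260704 per biotin-positive library, 16762804 to 28631847 per biotin-negative library and 19707746 to 23843843 per Cd40-null library. Counts were found for 13090 to 13455 genes in biotin-positive libraries, 14225 to 15742 in biotin-negative libraries and 13113 to 13596 in Cd40-null libraries, so the biotin groups did not overlap in this number. Cd40 averaged 1062 ± 163 CPM (counts per fixed library total, scaled by TMM) in biotin-positive libraries, against 511 ± 78.7 CPM in biotin-negative ones (SD, n = 6 each). In the 2 Cd40-null libraries, from Cd40-/- mice, Cd40 stood at 74.2 and 53.3 CPM, so some reads were still counted to the gene there. The DC genes Flt3 and Ccr7 were abundant in all groups, at 1015 ± 87.6 and 2886 ± 352 CPM in biotin-positive libraries. Itgam, which encodes the CD11b used in the sort, was at 0.0516 to 5.88 CPM in biotin-positive libraries against 10.1 to 65.0 CPM in biotin-negative libraries and 11.2 and 18.3 CPM in Cd40-null libraries. Clec9a, a defining gene of type 1 DCs, was at 0 in all biotin-positive and Cd40-null libraries, and Xcr1 was at 1.41 to 2.58 CPM in biotin-positive libraries, against 2.03 to 4.47 CPM in biotin-negative ones.

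Between biotin-positive and biotin-negative DCs, 2 of the 10 factors were higher, Irf8 and Spi1, and 2 were lower, Zeb2 and Spib. Zeb2 was 5.30-fold and Spib 3.90-fold lower in biotin-positive DCs, and Irf8 was 2.29-fold and Spi1 1.36-fold higher. The other 6 did not pass the test, a quasi-likelihood test of edgeR with Benjamini-Hochberg adjustment over all 14217 genes at 0.05. Of all genes, 7.75% were called in this comparison, 3.7% higher and 4.05% lower. The median log2 fold change of the 10 factors was -0.32, against -0.03 for all genes tested.

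**Figure D1:**
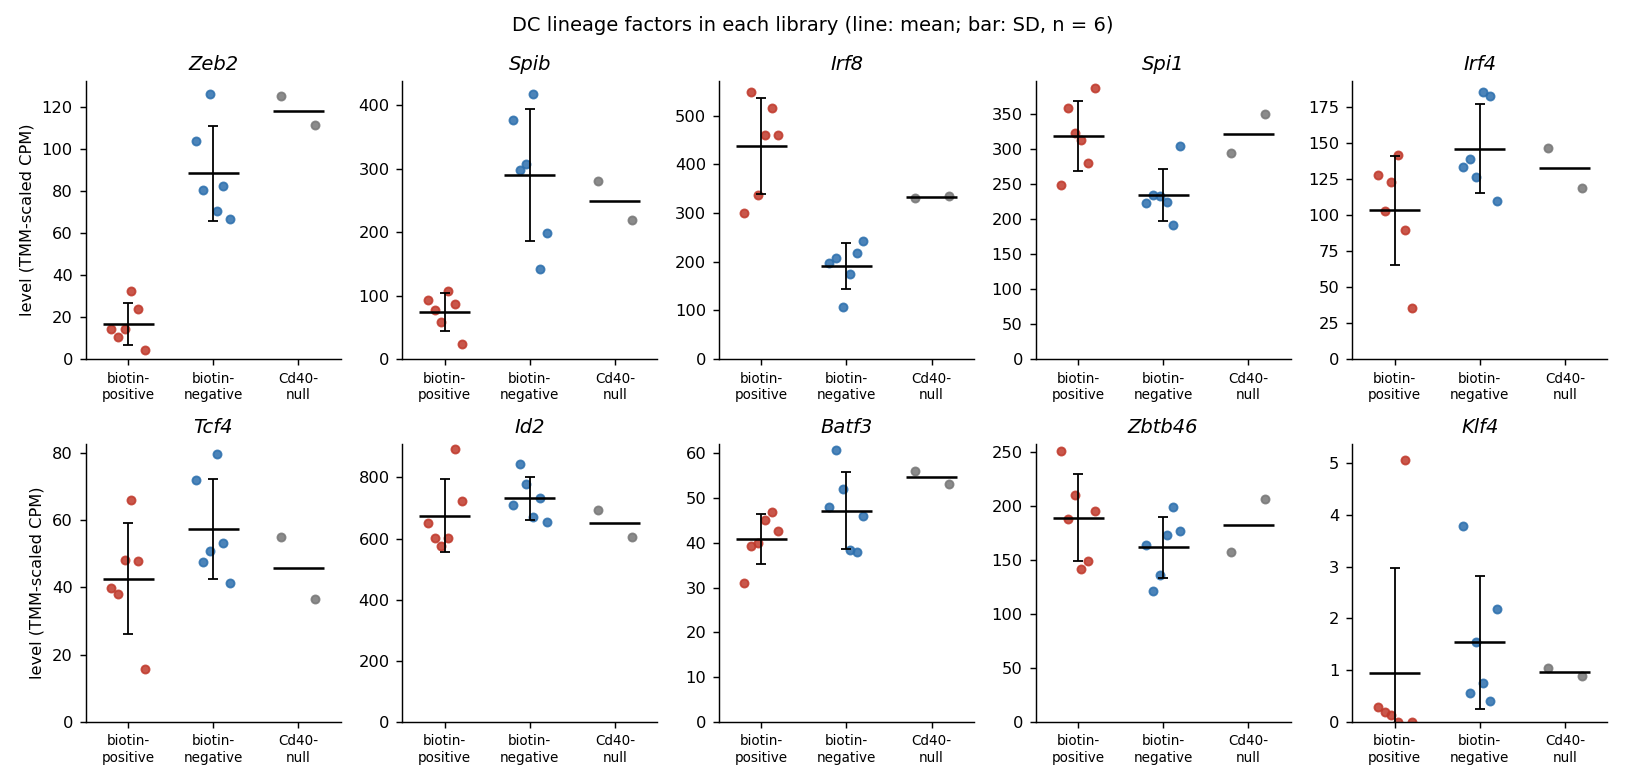
Level of each of the 10 factors in TMM-scaled CPM, with 1 point per library for biotin-positive, biotin-negative and Cd40-null DCs. Lines are means and bars are SD for the groups of 6; no bar is drawn for the 2 Cd40-null libraries. Zeb2 and Spib in biotin-positive libraries lie under every library of the other groups, and Irf8 in biotin-positive libraries lies above every biotin-negative library.

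Zeb2 (chromosome 2, 44983632 to 45117395, minus strand, GRCm38) encodes a zinc-finger repressor that binds E-boxes and is needed for plasmacytoid and type 2 DCs, in which it holds down Id2. Its level was 4.44, 14.4 and 32.3 CPM (lowest, median and highest) in biotin-positive libraries, against 66.7, 81.6 and 127 CPM in biotin-negative libraries and 126 and 111 CPM in Cd40-null libraries. The highest biotin-positive library held less than the lowest library of the other groups. Zeb2, Spib and Irf8 were the 3 factors whose biotin groups did not overlap, as was the case for 5.02% of all genes, 2.6% with biotin-positive libraries higher and 2.41% with them lower. The log2 fold change against biotin-negative DCs was -2.41 (SE 0.34, adjusted p = 0.000271), and against Cd40-null DCs it was -2.83 (SE 0.42, adjusted p = 0.00156), a 7.09-fold lower level. In pooled cells, fewer cells that express a gene and less RNA per cell cannot be told apart. The exons of Zeb2 share 359 bases with those of Zeb2os on the opposite strand. Zeb2os has no counts under that symbol, so reads from that stretch could be counted to Zeb2 whichever gene gave them.

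RefSeq lists 4 start sites for Zeb2, and the window of 250 bases before to 50 bases after each was searched for 6 motifs on both strands. These were GGAA (the core of sites bound by ETS proteins such as Spi1 and Spib), the IRF repeat (GAAA, any 2 bases and GAAA again), CACCTG (an E-box bound by Zeb2), CAGCTG (another E-box), TGANTCA (bound by AP-1 proteins such as Batf3) and TATAAA. The most downstream Zeb2 start, chr2:45110228-45110527 on the minus strand in GRCm38.p6, is shown because it was the one of the 12 windows found for the factors with 2 copies of TGANTCA, at -189 and -132 from the start. Capitals mark every match to any of the 6 motifs.
Zeb2: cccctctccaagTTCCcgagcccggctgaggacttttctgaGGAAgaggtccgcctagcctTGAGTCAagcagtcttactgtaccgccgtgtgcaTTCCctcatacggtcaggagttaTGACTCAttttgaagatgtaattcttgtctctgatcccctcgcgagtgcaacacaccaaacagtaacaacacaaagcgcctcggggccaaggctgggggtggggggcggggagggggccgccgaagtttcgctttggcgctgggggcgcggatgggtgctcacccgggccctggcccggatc
TGANTCA was present in 7.81% of the 32851 mouse promoter windows of this length. The other 3 Zeb2 windows held GGAA alone of the 6 motifs, and GGAA was present in 96.0% of all windows. No Zeb2 window held CACCTG, which was in 20.2% of all windows. A match describes the letters and does not show binding.

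Spib (chromosome 7, 44525993 to 44532071, minus strand) encodes an ETS-family factor related to Spi1 that serves plasmacytoid DCs and B cells. It stood at 23.8, 82.1 and 107 CPM (lowest, median and highest) in biotin-positive libraries, against 142, 303 and 419 CPM in biotin-negative libraries and 281 and 219 CPM in Cd40-null libraries. The biotin-positive libraries again lay under all libraries of both other groups. The log2 fold change was -1.96 against biotin-negative DCs (SE 0.31, adjusted p = 0.000618) and -1.75 against Cd40-null DCs (SE 0.39, adjusted p = 0.0245). The call against Cd40-null DCs rested on single libraries: the adjusted p was 0.279 without Cd40-null replicate 1, 0.103 without Cd40-null replicate 2 and 0.0513 without biotin-positive replicate 3. It was 0.0652 with no filter on low counts.

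The single RefSeq window for Spib (chr7:44532022-44532321, minus strand) is shown beside that of Zeb2, since both genes were lower in biotin-positive DCs; it held 1 of the 6 motifs, GGAA, once, at -196 on the opposite strand.
Spib: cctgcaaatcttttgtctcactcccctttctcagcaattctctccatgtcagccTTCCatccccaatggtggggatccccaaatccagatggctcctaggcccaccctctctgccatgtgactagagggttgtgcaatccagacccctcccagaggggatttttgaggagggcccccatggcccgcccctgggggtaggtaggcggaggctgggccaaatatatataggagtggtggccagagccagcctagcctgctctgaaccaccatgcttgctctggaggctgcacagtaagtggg
It held none of the E-box, AP-1, IRF or TATAAA motifs, and 2 CpG dinucleotides, against 19 in the Zeb2 window above.

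Tcf4 (chromosome 18) encodes the E protein that defines plasmacytoid DCs. It was at 15.7, 43.8 and 65.9 CPM (lowest, median and highest) in biotin-positive libraries, against 41.3, 52.2 and 79.6 CPM in biotin-negative libraries and 55.0 and 36.7 CPM in Cd40-null libraries. The ranges overlapped, and the log2 fold change of -0.43 against biotin-negative DCs (SE 0.26) did not pass the test (adjusted p = 0.394). Of the factors that serve the plasmacytoid branch, Zeb2 and Spib thus passed the test and Tcf4 did not; differences between the genes were not tested.

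Irf8 (chromosome 8, 120736358 to 120756694, plus strand) encodes the interferon regulatory factor on which type 1 DCs depend. Its level was 300, 461 and 549 CPM (lowest, median and highest) in biotin-positive libraries, against 106, 202 and 242 CPM in biotin-negative libraries and 331 and 336 CPM in Cd40-null libraries. Every biotin-positive library was above every biotin-negative library, while the Cd40-null libraries fell inside the biotin-positive range and above the biotin-negative one. The log2 fold change against biotin-negative DCs was 1.20 (SE 0.18, adjusted p = 0.000431). Against Cd40-null DCs it was 0.39 in biotin-positive DCs (SE 0.26, adjusted p = 0.540) and -0.80 in biotin-negative DCs (SE 0.24, unadjusted p = 0.00392, adjusted p = 0.254), and neither passed the test.

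RefSeq lists 2 start sites for Irf8. The upstream one (chr8:120736108-120736407, plus strand) is shown because it held TATAAA, at -31, which was in 13.6% of all windows.
Irf8: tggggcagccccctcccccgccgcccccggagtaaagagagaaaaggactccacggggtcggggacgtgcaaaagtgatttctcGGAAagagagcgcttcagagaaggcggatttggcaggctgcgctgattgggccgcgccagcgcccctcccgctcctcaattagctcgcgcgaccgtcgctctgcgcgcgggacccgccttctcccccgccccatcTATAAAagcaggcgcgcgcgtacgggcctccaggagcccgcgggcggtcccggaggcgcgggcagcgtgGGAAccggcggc
It had 38 CpG dinucleotides and 2 copies of GGAA. The IRF repeat, found in 3.44% of all windows, was in none of the 12 windows of the factors, those of Irf8 and Irf4 included.

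Batf3 (chromosome 1, 191097847 to 191108945, plus strand) encodes the AP-1 partner of Irf8 in type 1 DCs. Batf3 was at 31.0, 41.3 and 47.0 CPM (lowest, median and highest) in biotin-positive libraries, against 37.9, 47.0 and 60.7 CPM in biotin-negative libraries and 56.0 and 53.2 CPM in Cd40-null libraries. It did not follow Irf8: the biotin groups overlapped (log2 -0.21, SE 0.15, adjusted p = 0.508), and biotin-positive libraries lay under both Cd40-null libraries without passing the test (log2 -0.42, SE 0.21, adjusted p = 0.402). Id2 (chromosome 12, 25093799 to 25097140, minus strand), an inhibitor that binds E proteins such as Tcf4, was at 576, 627 and 894 CPM in biotin-positive libraries, against 653, 721 and 844 CPM in biotin-negative libraries and 694 and 605 CPM in Cd40-null libraries. These ranges overlapped, with a log2 fold change of -0.12 between the biotin groups (SE 0.11, adjusted p = 0.621).

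Irf4 (chromosome 13, 30749226 to 30766976, plus strand) encodes the interferon regulatory factor of type 2 DCs, known for its part in migration and antigen presentation. It stood at 35.6, 113 and 141 CPM (lowest, median and highest) in biotin-positive libraries, against 109, 136 and 185 CPM in biotin-negative libraries and 146 and 119 CPM in Cd40-null libraries. The groups overlapped, and the log2 fold change of -0.50 against biotin-negative DCs (SE 0.24) had an adjusted p of 0.252. Klf4 (chromosome 4, 55527143 to 55532466, minus strand), a zinc-finger factor needed by a subset of type 2 DCs, was near the limit of detection. Its counts in biotin-positive replicates 1 to 6 were 5, 3, 2, 0, 164 and 0, or 0.283, 0.184, 0.131, 0, 5.07 and 0 CPM, against 0.409 to 3.79 CPM in biotin-negative libraries and 1.05 and 0.878 CPM in Cd40-null libraries. One library held nearly all counts of the biotin-positive group, and the test gave a log2 fold change of -0.68 with an SE of 1.26 (adjusted p = 0.843). Without that library the log2 fold change was -3.61 (SE 1.26, adjusted p = 0.0989).

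Spi1 (chromosome 2, 91082390 to 91115756, plus strand) encodes PU.1, the ETS factor shared by DCs, macrophages and B cells. Spi1 was at 249, 318 and 388 CPM (lowest, median and highest) in biotin-positive libraries, against 191, 229 and 304 CPM in biotin-negative libraries and 294 and 350 CPM in Cd40-null libraries. The biotin groups overlapped, through biotin-negative replicate 6 at 304 CPM, and the log2 fold change of 0.44 (SE 0.12) passed the test at an adjusted p of 0.0351. This call was lost in 9 of the 12 fits that left out 1 biotin-sorted library, with an adjusted p between 0.0100 and 0.0861 over the 12. Against Cd40-null DCs the log2 fold change was -0.02 in biotin-positive DCs (adjusted p = 0.994) and -0.46 in biotin-negative DCs (unadjusted p = 0.0151, adjusted p = 0.412). Zbtb46 (chromosome 2, 181387762 to 181459426, minus strand), a zinc-finger factor of conventional DCs, was at 142, 191 and 251 CPM in biotin-positive libraries, against 121, 168 and 199 CPM in biotin-negative libraries and 157 and 207 CPM in Cd40-null libraries. Its ranges overlapped, with a log2 fold change of 0.23 (SE 0.15, adjusted p = 0.448).

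**Figure D2:**
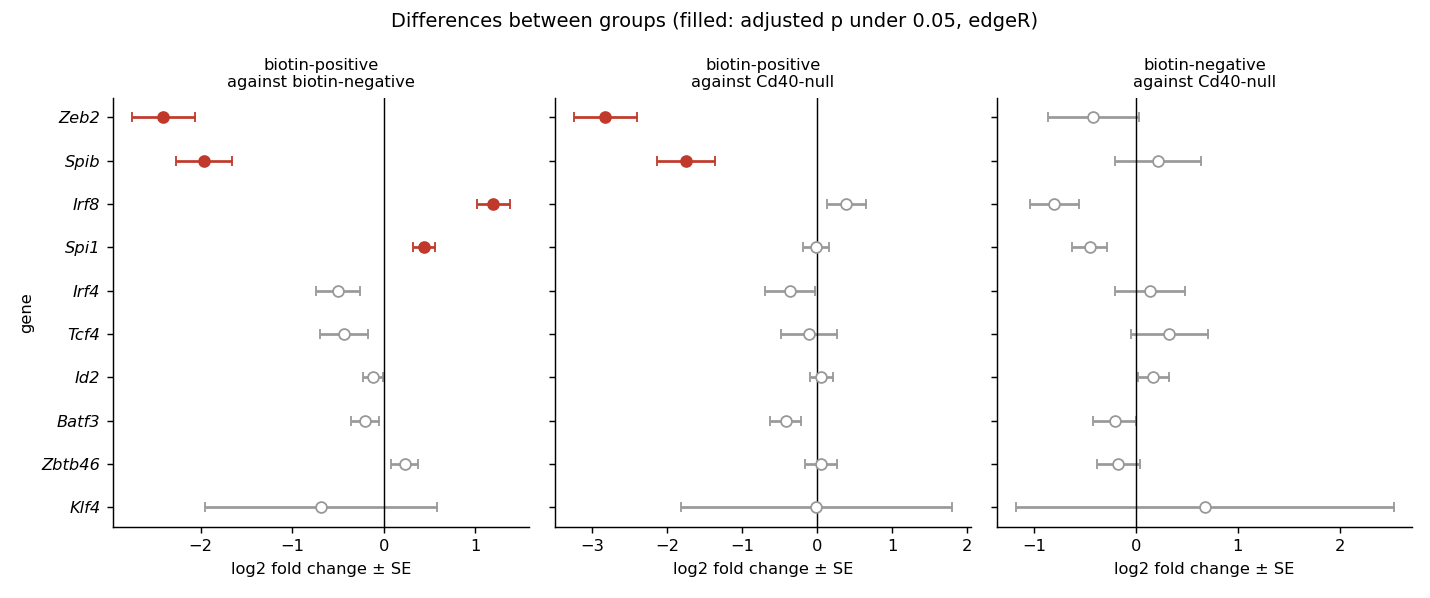
Log2 fold change with its SE for each of the 10 factors in the 3 comparisons, with genes down the page and filled points for an adjusted p under 0.05 in edgeR. The left panel (biotin-positive over biotin-negative) has 4 filled points (Zeb2, Spib, Irf8, Spi1), the middle one (biotin-positive over Cd40-null) has 2 (Zeb2, Spib), and the right one (biotin-negative over Cd40-null) has none. The widest bars belong to Klf4, with an SE of 1.26 between the biotin groups.

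Against Cd40-null DCs, 2 of the 10 factors were called in biotin-positive DCs, Zeb2 and Spib, both lower, where 2.27% of all genes were called, 1.22% higher and 1.05% lower. The ranges of 3 factors did not overlap (Zeb2, Spib and Batf3, all lower), as for 15.9% of all genes in this comparison (7.81% higher, 8.07% lower), which has 2 libraries on one side. In biotin-negative DCs edgeR called 0 of the 10 against Cd40-null DCs, where 0.317% of all genes were called (0.274% higher, 0.0422% lower). At an unadjusted p under 0.05 there were 2, Irf8 and Spi1, both lower, and DESeq2 and limma voom also called 0. Irf8 was the only one of the 10 whose range did not overlap between biotin-negative and Cd40-null DCs, against 10.7% of all genes (6.23% higher, 4.47% lower). The log2 fold changes of biotin-negative over Cd40-null DCs were -0.42 for Zeb2 (SE 0.45, adjusted p = 0.838) and 0.22 for Spib (SE 0.42, adjusted p = 0.939). All of these comparisons use the same 2 Cd40-null libraries. The median over the 10 factors was -0.06 for biotin-positive over Cd40-null DCs and -0.02 for biotin-negative over Cd40-null DCs, where the medians over all genes tested were 0.04 and 0.06.

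**Figure D3:**
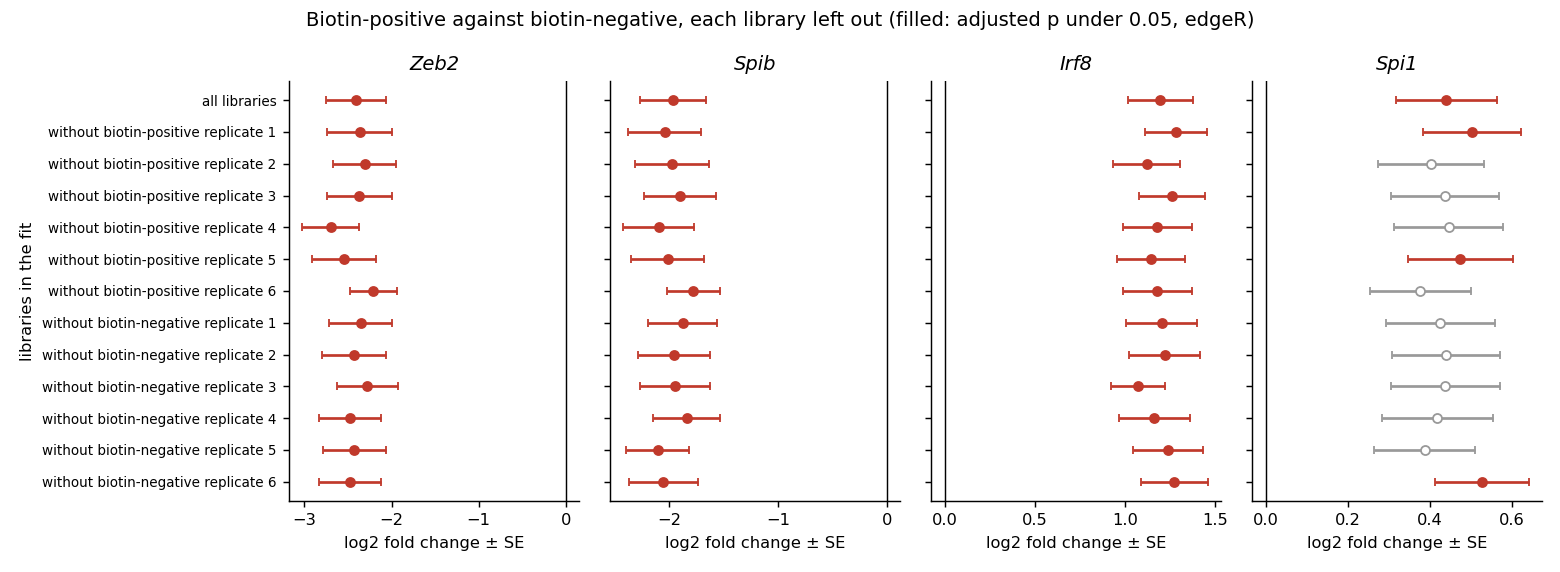
Log2 fold change with its SE between biotin-positive and biotin-negative DCs for Zeb2, Spib, Irf8 and Spi1, with all libraries and with each biotin-sorted library left out in turn; filled points have an adjusted p under 0.05 in edgeR. Zeb2 stays between -2.70 and -2.21, Spib between -2.11 and -1.78 and Irf8 between 1.07 and 1.28, with all points filled, and Spi1 has open points in 9 of the 12 fits.

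Within the biotin-positive group the factors did not vary equally. The SD was 59.4% of the mean for Zeb2, 40.0% for Spib, 38.7% for Tcf4 and 36.7% for Irf4, against 25.6%, 36.0%, 26.0% and 21.3% of the mean in biotin-negative libraries. Biotin-positive replicate 6 was the lowest of its group for all 4 of these genes. Without it, Zeb2 was at a log2 fold change of -2.21 against biotin-negative DCs (SE 0.27, adjusted p = 0.000124) and Spib at -1.78 (SE 0.24, adjusted p = 0.000309), while Irf4 was at -0.32 (adjusted p = 0.287) and Tcf4 at -0.26 (adjusted p = 0.577). Spi1 and Batf3 varied least in biotin-positive libraries, with an SD of 15.8% and 13.8% of the mean.

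With the number of genes detected in each library as a covariate, none of the 4 calls between the biotin groups held, although the fold changes kept their direction: log2 -2.57 for Zeb2 (adjusted p = 0.205), -1.98 for Spib (0.272), 1.59 for Irf8 (0.169) and 0.51 for Spi1 (0.567). Over all genes, 11 were called in that fit. As the detected genes do not overlap between the biotin groups, the group and this number cannot be told apart here. Detected genes did overlap between biotin-positive and Cd40-null libraries, and in the same fit Zeb2 (log2 -2.83, adjusted p = 0.00284) and Spib (log2 -1.75, adjusted p = 0.0350) were called lower in biotin-positive than in Cd40-null DCs. The median number of detected genes was 13322.5 in biotin-positive and 13354.5 in Cd40-null libraries, so the covariate could change little there. This comparison therefore does not bear on the calls between the biotin groups.

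Ratios of factors within a library do not depend on how libraries are scaled, and 4 pairs with opposed or related roles were read as log2 ratios of CPM, with no test. Irf4 to Irf8, the pair that separates type 2 from type 1 DCs, had a median of -2.06 in biotin-positive libraries (-3.69 to -1.23), against -0.41 in biotin-negative libraries (-1.15 to 0.25) and -1.18 and -1.50 in Cd40-null libraries. The biotin groups did not overlap; Cd40-null replicate 2 lay within the biotin-positive range and replicate 1 between the biotin groups. Zeb2 to Id2, a repressor and its target, had a median of -5.41 in biotin-positive libraries (-7.35 to -4.22), against -3.20 in biotin-negative libraries (-3.39 to -2.62) and -2.47 and -2.44 in Cd40-null libraries. Spi1 to Spib, the related ETS factors, had a median of 1.95 in biotin-positive libraries (1.41 to 4.02), against -0.38 in biotin-negative libraries (-0.90 to 0.61) and 0.07 and 0.68 in Cd40-null libraries. For both pairs the biotin-positive libraries lay apart from all others. Id2 to Tcf4, the inhibitor and the E protein that it binds, had a median of 4.01 in biotin-positive libraries (3.19 to 5.52), against 3.86 in biotin-negative libraries (3.08 to 4.15) and 3.66 and 4.04 in Cd40-null libraries, and these ranges overlapped.

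**Figure D4:**
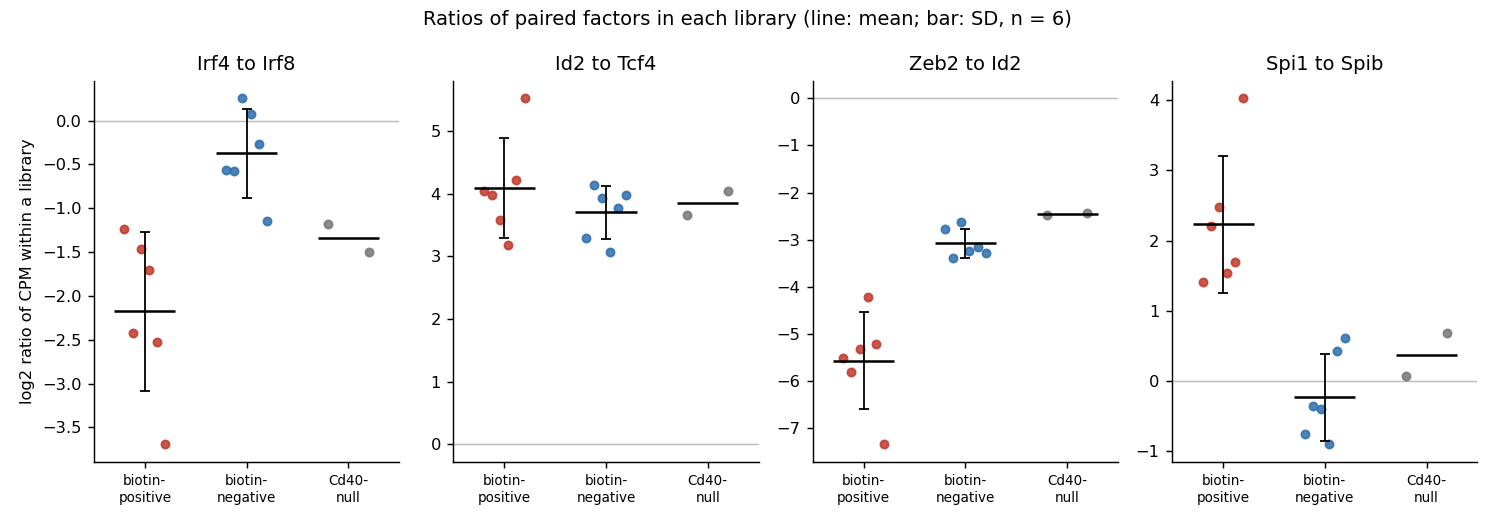
Log2 ratio of the CPM of 2 factors within each library, for 4 pairs, with 1 point per library; lines are means and bars are SD for the groups of 6. The biotin-positive points for Irf4 to Irf8 (-3.69 to -1.23) lie under all biotin-negative points, those for Zeb2 to Id2 (-7.35 to -4.22) lie under all points of both other groups, those for Spi1 to Spib (1.41 to 4.02) lie above them, and those for Id2 to Tcf4 overlap both.

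To order the genes, levels were divided by the length of the longest protein-coding transcript of GENCODE M21. On the scale of CPM per kilobase, Id2 was the highest of the 10 in every group, at 343 ± 60.7 in biotin-positive libraries, 372 ± 36.2 in biotin-negative ones (SD, n = 6 each) and 353 and 307 in Cd40-null libraries. Spi1 and Irf8 followed in biotin-positive libraries at 157 ± 24.8 and 154 ± 34.6 CPM per kilobase, with overlapping ranges, and both lay apart from Batf3 at 51.0 ± 7.06. In biotin-negative libraries the next were Spi1 (115 ± 18.3), Spib (104 ± 37.5), Irf8 (67.1 ± 16.6) and Batf3 (58.9 ± 10.7), each overlapping its neighbour. Spib ranked 6 of 10 in biotin-positive libraries (26.7 ± 10.7 CPM per kilobase), overlapping Zbtb46 (35.6 ± 7.59) and Irf4 (21.7 ± 7.96), and 3 of 10 in biotin-negative libraries. Zeb2 ranked 9 in biotin-positive libraries (1.83 ± 1.09) and 8 in biotin-negative libraries (9.70 ± 2.49), overlapping Tcf4 in both (4.97 ± 1.92 and 6.70 ± 1.74). Klf4 was the lowest in all groups, at 0.312 ± 0.669 CPM per kilobase in biotin-positive libraries, against 0.508 ± 0.426 in biotin-negative ones.

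A wider list of 47 other regulators of DC development was read in the same fit, and 43 passed the filter. Between the biotin groups 3 were higher, 2 were lower and 38 did not pass the test, where 7.75% of all genes were called, 3.7% higher and 4.05% lower; the count is near that background and describes single genes, not the list. The median log2 fold change was -0.16, against -0.03 over all genes. Irf1, an interferon-induced relative of Irf8, was at 994, 1151 and 1233 CPM (lowest, median and highest) in biotin-positive libraries, against 479, 728 and 883 CPM in biotin-negative ones. The groups did not overlap (log2 0.69, SE 0.12, adjusted p = 0.00141). Zeb1, the paralogue of Zeb2, was higher in biotin-positive DCs where Zeb2 was lower: 86.5, 94.7 and 158 CPM in biotin-positive libraries, against 63.2, 68.7 and 90.8 CPM in biotin-negative ones, with ranges that overlapped (log2 0.63, SE 0.16, adjusted p = 0.0237). Notch2, a receptor needed by a subset of type 2 DCs, was at 55.8, 63.8 and 81.3 CPM in biotin-positive libraries, against 86.7, 116 and 133 CPM in biotin-negative libraries, without overlap (log2 -0.79, SE 0.15, adjusted p = 0.00259). The other calls, named after their values were seen, were Cbfa2t3, a corepressor (log2 0.47, SE 0.13, adjusted p = 0.0367), and Nr4a3, a nuclear receptor that supports DC migration (log2 -1.49, SE 0.44, adjusted p = 0.0479). With 1 biotin-sorted library left out, 3 to 6 of the 43 were called. Against Cd40-null DCs, where 2.27% (biotin-positive) and 0.317% (biotin-negative) of all genes were called, edgeR called 0 of the 43 in biotin-positive DCs (8 at an unadjusted p under 0.05; 5 by DESeq2 and 4 by limma voom) and 0 in biotin-negative DCs (4 at an unadjusted p under 0.05; 1 by DESeq2 and 0 by limma voom).

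Markers of the branches that the factors serve were counted in the same way between the biotin groups, beside 7.75% of all genes called (3.7% higher, 4.05% lower). Of 16 markers of type 2 DCs, 8 were lower and 1 was higher in biotin-positive DCs, among them the inhibitory receptors Clec12a (log2 -2.71, SE 0.45, adjusted p = 0.00113) and Sirpa (log2 -1.33, SE 0.23, adjusted p = 0.00162). The higher one, named after its values were seen, was the calcium-binding S100a4 (log2 0.58, SE 0.14, adjusted p = 0.0163). Of 14 markers of type 1 DCs, 3 were lower and 0 higher, among them the lysosomal hydrolase Naaa (log2 -2.64, SE 0.48, adjusted p = 0.00210). Another type 1 marker, the integrin Itgae, named after its values were seen, was at 7.17 to 11.2 CPM in biotin-positive libraries, against 0.119 to 6.53 CPM in biotin-negative ones, without overlap and without passing the test (log2 1.59, SE 0.66, adjusted p = 0.168). Of 12 plasmacytoid DC markers, 2 were lower and 0 higher, Irf7 (log2 -3.16, SE 0.64, adjusted p = 0.00498) and Atp1b1 (log2 -3.17, SE 0.94, adjusted p = 0.0495), and 1 was called in 10 of the 12 fits with a biotin-sorted library left out. Of 11 shared and mature DC markers, 5 were lower and 2 higher, with H2-Aa, an MHC class II chain, at log2 -2.00 and the actin-bundling Fscn1 at log2 1.17. The median log2 fold changes of these lists were -1.50, -0.56, -1.54 and -1.32 in the order given. The members of these lists overlap in function, and no list was tested as a set.

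Markers of other cell types that the sort could hold were read beside Zeb2 and Spib. Between the biotin groups, 7.75% of all genes were called, 3.7% higher and 4.05% lower. All 18 markers of monocytes and macrophages were tested: 8 were lower and 0 higher in biotin-positive DCs, among them the chemokine receptor Ccr2 (log2 -6.76, SE 0.92, adjusted p = 0.000189). Their summed level was 104 to 268 CPM in biotin-positive libraries, against 301 to 1311 CPM in biotin-negative libraries and 529 and 346 CPM in Cd40-null libraries, where Mertk was at 0. For Spib, the summed plasmacytoid DC markers were 56.3 to 113 CPM in biotin-positive libraries, against 105 to 231 CPM in biotin-negative libraries and 90.4 and 165 CPM in Cd40-null libraries, with overlapping ranges. Bst2, Tlr9 and Irf7 had the highest means of this list in all groups, so the sum mostly reflects these genes. They averaged 36.7, 30.9 and 4.96 CPM in biotin-positive libraries, against 33.8, 50.3 and 44.3 CPM in biotin-negative ones. Siglech, a defining plasmacytoid gene, was near the limit of detection. It averaged 0.696 CPM in biotin-positive libraries (median 0.0283, range 0 to 2.82), against 0.526 CPM in biotin-negative ones (median 0.157, range 0 to 1.53). Means and medians thus differed in direction, and the Cd40-null libraries held 1.03 and 2.53 CPM.

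The calls in the lists that follow also stand beside 7.75% of all genes called, 3.7% higher and 4.05% lower. B cell markers, 8 tested, gave 0 calls in edgeR between the biotin groups (0 at an unadjusted p under 0.05, and 0 by DESeq2 and limma voom). They summed to 5.13 to 93.7 CPM in biotin-positive libraries, 9.79 to 49.2 CPM in biotin-negative ones, and 60.6 and 6.40 CPM in Cd40-null libraries. Langerhans cell markers, 5 tested, were the other way round: 2 were higher in biotin-positive DCs, Epcam (log2 1.96, SE 0.23, adjusted p = 4.67e-05) and Cd207 (log2 1.94, SE 0.33, adjusted p = 0.00130), and their sum was 215 to 294 CPM in biotin-positive libraries, against 34.5 to 108 CPM in biotin-negative and 106 and 91.6 CPM in Cd40-null libraries. T cell markers, 12 tested, gave 0 calls in edgeR (5 at an unadjusted p under 0.05; 1 by DESeq2 and 0 by limma voom), with a median log2 fold change of 1.80 and sums of 25.6 to 55.1 CPM in biotin-positive libraries, 19.9 to 35.9 CPM in biotin-negative ones and 119 and 31.4 CPM in the Cd40-null ones. The 3 NK cell markers tested gave 0 calls (0 unadjusted, and 0 by both other tools). The part of these cell types in the differences of Zeb2 and Spib was not tested.

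**Figure D5:**
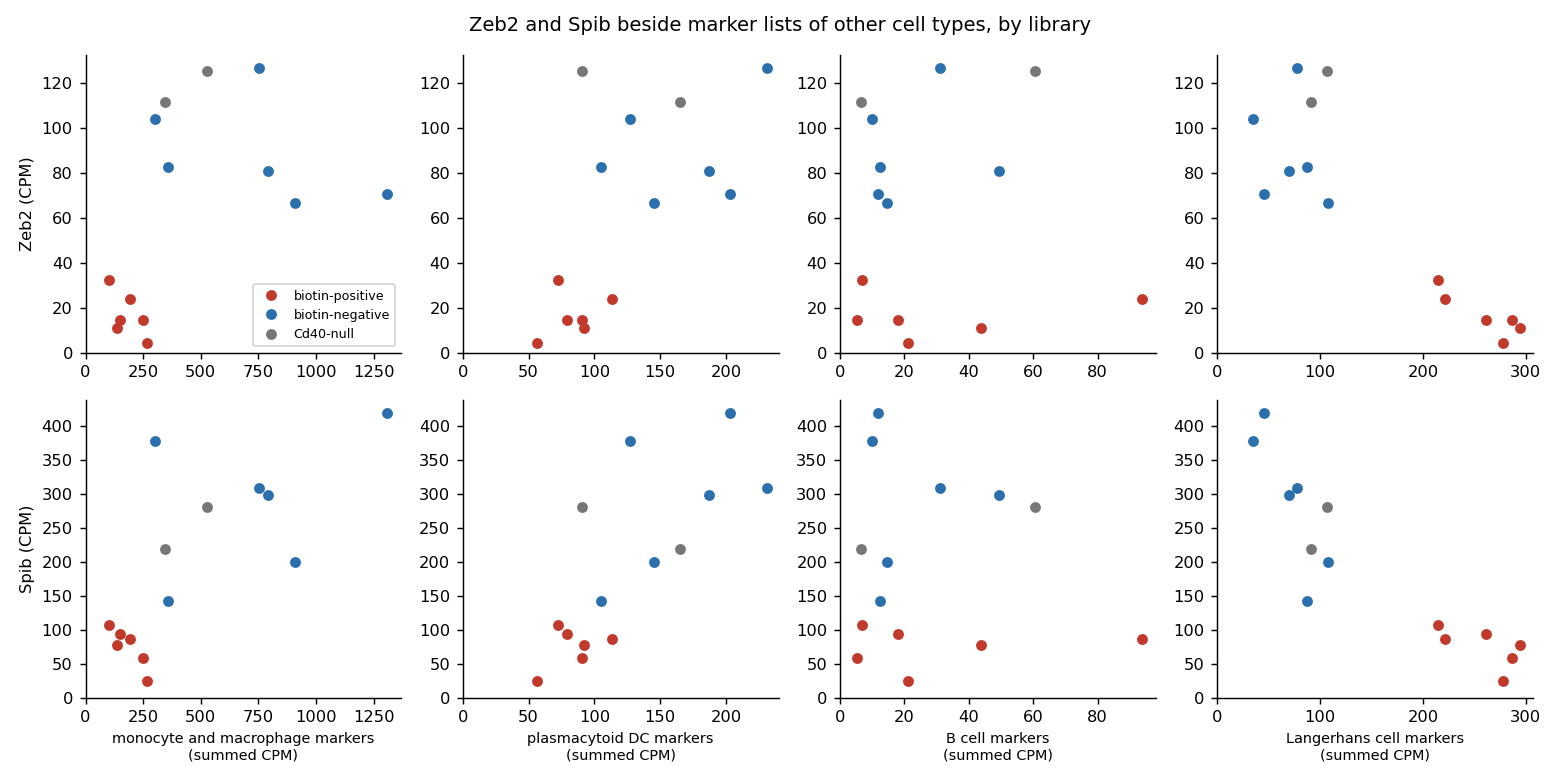
Zeb2 (upper row) and Spib (lower row) in CPM against the summed CPM of 4 marker lists, with 1 point per library. Biotin-positive libraries have monocyte and macrophage sums of 104 to 268 CPM and Langerhans cell sums of 215 to 294 CPM, apart from the biotin-negative libraries at 301 to 1311 CPM and 34.5 to 108 CPM; the B cell sums overlap.

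Profiles across the 14 libraries were compared with those of 8856 genes at a mean of at least 5 CPM, by the root mean square difference of centred log2 CPM, where a smaller value is a closer profile. Zeb2 was closest to Mefv (0.47), Sash3 (0.55) and Cyp4f16 (0.58), each lower in biotin-positive libraries: Mefv averaged 27.4 CPM there, against 127 CPM in biotin-negative and 101 CPM in Cd40-null libraries. Spib was closest to Tspan13 (0.38), Scn2b (0.43) and Dpp4 (0.45), and Dpp4 averaged 73.1 CPM in biotin-positive, 253 CPM in biotin-negative and 236 CPM in Cd40-null libraries. Irf8 was closest to Ankmy2 (0.28), Map2k1 (0.30) and Vwa5a (0.32), and Spi1 to Myo1g (0.13), Psd4 (0.14) and Aldoa (0.14). Irf4 and Tcf4 were near each other at 0.27: Tcf4 was second to Papss2 (0.26) for Irf4, and Irf4 was first for Tcf4. Both were lowest in biotin-positive replicate 6, at 35.6 and 15.7 CPM. The distances follow from the same libraries and scaling factors, and genes of small spread, such as Id2 with Gnb1 at 0.10, have small distances to many others.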

How the data were processed

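Expected counts of reads per gene, as the authors deposited them, were rounded to whole numbers here. The submitters' processing notes name RSEM 1.2.8, Bowtie2 2.1.0, DESeq2 1.16.0 and the build mm10; the gene annotation is not given in the sources used here. A normalized table was not used. Of 23420 rows, 3078 were at 0 in all 14 libraries.

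With edgeR 4.0.16 (R 4.3.3), filterByExpr kept genes at a min.count of 10, libraries were scaled by TMM, and all libraries entered 1 quasi-likelihood fit with a group factor (glmQLFit, glmQLFTest, two-sided). Each pair of groups was tested, with Benjamini-Hochberg adjustment over 14217 genes and a threshold of 0.05. Levels are TMM-scaled CPM, computed from the counts; log2 CPM used a prior count of 2. SE is the absolute log2 fold change over the square root of F. The pipeline was tested on simulated data. Alternatives used RLE factors, no filter, DESeq2 1.42.0, limma 3.58.1 voom with quality weights, only the groups compared, a replicate block, detected genes as a covariate, and each replicate left out.

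The 10 factors and all gene lists were chosen with earlier results of these data known. The rule for other named genes took up to 3 genes per list with the smallest p between the biotin groups. It also took the sort genes Itgax, Itgam and Xcr1, and the 3 closest profiles of each factor. Cd40, Flt3, Ccr7, Clec9a, Siglech, Mertk, Lyz2, Bst2, Itgae, S100a4, Cbfa2t3 and Nr4a3 were named outside this rule. Promoter windows are those of RefSeq on GRCm38.p6 and were found for 8 of the 10 factors, not for Spi1 or Tcf4. Gene positions are those of GENCODE M21 (GRCm38, the build mm10), 1-based. Counts come from reads without molecular identifiers, so depth limits low genes such as Klf4, and a count is not a number of molecules.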

Additional observations from a re-analysis of the deposited data

Results flagged for a closer look

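Klf4 in biotin-positive replicate 5, at 5.07 CPM, stood far from the other 5 libraries of its group, of which the next held 0.283 CPM. It was the 1 result flagged among 20 sets of 6 libraries examined (each factor in each biotin group), where chance flags about 1 in 20.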

How the results depend on the processing

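Of 489 alternative values for the 10 factors, 450 kept their direction and their side of the threshold, 18 kept the direction but lost the call and 21 changed sign. These values cover 30 results, most of them not called in the main fit. Only the 4 called between the biotin groups and the 2 called in biotin-positive against Cd40-null DCs could lose a call. The 18 losses thus fall among the alternatives for those, and their share of 489 does not measure how stable the calls were. No called value changed sign. Between the biotin groups the number of factors called was 4 under every alternative except the covariate of detected genes (0 called, and 11 of all genes against 1102) and leave-one-out (3 to 4). Against Cd40-null DCs, biotin-positive DCs had 2 factors called, but 1 with no filter and 1 to 2 with a library left out. All-gene calls there were 323, against 802 with DESeq2 (516 higher and 286 lower, against 174 and 149), 603 with limma voom and 78 to 346 by leave-one-out, the lowest without Cd40-null replicate 1 (78) or 2 (95). For biotin-negative against Cd40-null DCs they were 45, against 272 with DESeq2, 29 with only these groups, 6 with the covariate and 12 to 48 by leave-one-out. The causes were not tested.

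Replicate numbers did not pair the samples: correlations of same-numbered biotin libraries were -0.02 to 0.01, and 1 of 6 correlated best with its own number. With the replicate number as a block, 4 factors were called between the biotin groups, 1 in biotin-positive against Cd40-null DCs (129 of all genes; Spib at an adjusted p of 0.0655) and 0 in biotin-negative against Cd40-null DCs (19 of all genes).

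Sign changes touched no value larger than 0.68 in size. With the covariate, Klf4 was at log2 2.33 between the biotin groups and -2.51 in biotin-negative against Cd40-null DCs, where Batf3 was at 0.044. In biotin-positive against Cd40-null DCs, Id2 was at -0.0073 with limma voom, and leave-one-out gave -2.94 to 0.25 for Klf4, -0.13 to 0.11 for Spi1, -0.13 to 0.26 for Zbtb46, -0.043 to 0.16 for Id2 and -0.37 to 0.22 for Tcf4. In biotin-negative against Cd40-null DCs it gave -0.0074 to 0.29 for Irf4 and -0.36 to 0.032 for Zbtb46. Klf4 had no value between the biotin groups in 1 alternative, where it missed the filter. Of 490 list counts 62 moved by over 1.5 times, and calls among the 43 other regulators ran from 0 to 8 between the biotin groups. With 2 Cd40-null libraries and 150 cells per library, small differences could not be resolved.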
